A study of Mus musculus with 12 samples.

Results

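The 37 genes of the mouse mitochondrial genome were followed across all libraries of the series. They were taken as every row of the raw count table whose Ensembl identifier has a symbol that begins with mt-, out of 43432 identifiers in all. All 37 had counts: 13 code for proteins, 2 for ribosomal RNAs (rRNAs) and 22 for transfer RNAs (tRNAs). Of these, 36 passed the filter on low counts, and mt-Tf, the tRNA gene for phenylalanine, with 4 to 11 counts per library, did not. Total RNA of the gastrocnemius, a calf muscle made mostly of fast fibres, was sequenced from male mice. The 4 groups were exercised MKO, exercised WT, sedentary MKO and sedentary WT, with 3 libraries each. The exercised groups ran 90 min, at a speed set to 60% of each maximum, and the sedentary groups did not. MKO mice carry the knockout that the labels call cFeimin MKO, and WT mice are fl/fl controls that keep the floxed alleles. The sources used here do not give the Cre driver, the age of the mice, the time between the run and sampling, or whether poly(A) RNA was selected or rRNA removed.

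The mitochondrial genome is a small circle whose 2 strands are each copied by the nuclear-encoded polymerase POLRMT, with the factors TFAM and TFB2M, into long transcripts that span many genes. Enzymes then cut the tRNAs out of these transcripts, which frees the rRNAs and messenger RNAs that lie between them. The proteins made from them are subunits of respiratory complexes I, III and IV and of the ATP synthase, complex V, and the rRNAs form the core of the mitochondrial ribosome, and muscle with a high oxidative capacity holds much of this RNA. Both rRNA genes, 12 of the 13 protein genes and 14 tRNA genes are annotated on the plus strand, and mt-Nd6 and 8 tRNA genes on the minus strand.

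Sequences from the GENCODE M21 transcripts (GRCm38) show where neighbouring members and nuclear copies could share reads. How such reads were counted is not known. The first is the junction of the rRNA genes, chrM:995-1123 on the plus strand, where the capitals are the valine tRNA gene mt-Tv and the flanks are the end of mt-Rnr1 and the start of mt-Rnr2.
mt-Rnr1/mt-Tv/mt-Rnr2: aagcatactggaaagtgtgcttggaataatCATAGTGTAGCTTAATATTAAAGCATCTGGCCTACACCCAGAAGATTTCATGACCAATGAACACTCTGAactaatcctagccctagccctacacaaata
No base separates these 3 genes, so a fragment of an uncut transcript can cover all of them. The next pair is the overlap of the complex V genes, at chrM:7903-7969 and chrM:7927-7993, where the capitals are the 43 bases that both genes hold.
mt-Atp8: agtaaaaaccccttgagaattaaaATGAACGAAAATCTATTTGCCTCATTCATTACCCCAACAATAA
mt-Atp6: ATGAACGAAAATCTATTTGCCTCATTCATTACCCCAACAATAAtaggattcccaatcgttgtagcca
The complex I genes mt-Nd4l and mt-Nd4 share 7 bases in the same way, at chrM:10143-10173 and chrM:10167-10197.
mt-Nd4l: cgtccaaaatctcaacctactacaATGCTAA
mt-Nd4: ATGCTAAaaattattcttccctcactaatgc
The last set is a stretch of mt-Co1 at chrM:6390-6509 and the same stretch in 2 nuclear pseudogenes, both on minus strands, Gm29216 at chr1:24616069-24616188 and Gm13340 at chr2:22588466-22588585. Capitals mark bases that differ from mt-Co1, 1 in the first copy and 4 in the second.
mt-Co1: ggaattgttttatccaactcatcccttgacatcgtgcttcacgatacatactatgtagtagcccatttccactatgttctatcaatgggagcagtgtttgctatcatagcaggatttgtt
Gm29216: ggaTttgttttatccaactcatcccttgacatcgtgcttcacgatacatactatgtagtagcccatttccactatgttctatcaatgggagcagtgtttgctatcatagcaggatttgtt
Gm13340: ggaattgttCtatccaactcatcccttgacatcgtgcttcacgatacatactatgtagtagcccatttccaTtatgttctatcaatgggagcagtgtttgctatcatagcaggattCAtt

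Library totals lay between 14324010 and 14563501 counts, and 18502 to 19559 genes had a count. B230219D22Rik, the gene known as Feimin, had 3.52 to 4.58 CPM, the normalised counts scaled to a common library size, in exercised MKO libraries against 21.6 to 29.8 CPM in exercised WT libraries, and 3.62 to 6.12 CPM in sedentary MKO libraries against 21.7 to 24.3 CPM in sedentary WT libraries. Its log2 fold change was -2.64 after exercise (edgeR quasi-likelihood test, Benjamini-Hochberg adjusted p = 0.000114) and -2.20 at rest (adjusted p = 0.000589). Glycolytic fast-fibre markers were high in every library, with 82090 to 123800 CPM summed over 7 genes. Sedentary MKO replicate 3 and exercised WT replicate 5 stood apart from the other libraries. In the first, 12 slow-fibre genes summed to 149.8 CPM, against 749.4 to 2104 CPM elsewhere, and Myh7, the slow myosin heavy chain, was at 11.2 CPM. In the second, the nuclear-retained RNA Neat1 was at 1399 CPM, against 534 to 863.3 CPM elsewhere.

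Mitochondrially encoded genes took between 16.9% and 24.3% of the counts of a library. Their share was 21.7%, 22.03% and 22.4% in exercised MKO libraries and 20.6%, 20.7% and 24.3% in exercised WT libraries. It was 22.6%, 21.2% and 16.9% in sedentary MKO libraries and 22.1%, 24.3% and 20.1% in sedentary WT libraries. The group ranges overlapped, and the lowest value of all was that of sedentary MKO replicate 3. The group means were 22.1% ± 0.339 in exercised MKO, 21.9% ± 2.13 in exercised WT, 20.2% ± 2.99 in sedentary MKO and 22.2% ± 2.08 in sedentary WT muscle (SD, n = 3 each). In whole muscle, fewer fibres rich in mitochondria and less of this RNA per fibre cannot be told apart.

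Per kilobase of gene, and averaged over 12 libraries, mt-Co1, the catalytic core subunit of complex IV, was highest at 34260 CPM per kilobase. It was followed by mt-Nd1, a membrane subunit of complex I, at 31950 CPM per kilobase, and by mt-Atp6, the proton channel subunit of complex V, at 27080 CPM per kilobase. The complex IV subunit mt-Co3 stood at 24200, the complex III subunit mt-Cytb at 21670 and the complex IV subunit mt-Co2 at 19090 CPM per kilobase. Within these 6, each gene exceeded the next in at least 10 of 12 libraries as counted. Nuclear copies share reads with some of these genes and not with others. The copy Gm10925 held 1.01 times the counts of mt-Atp6, and Gm11410 held 0.000239 times those of mt-Cytb. No copy of mt-Nd1 was found. The order may thus depend on how shared reads were counted, which is not known. Next in order came mt-Nd2 at 14620, mt-Atp8 at 14100, mt-Nd4 at 12130 and mt-Nd3 at 8543 CPM per kilobase. The minus-strand gene mt-Nd6 averaged 5851 CPM per kilobase, and mt-Nd5 and mt-Nd4l averaged 4297 and 4241 CPM per kilobase. The last pair had no fixed order, since mt-Nd5 was the higher in 6 of 12 libraries.

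The rRNA genes were lower per kilobase than every protein gene on average. The level of mt-Rnr1, the small subunit rRNA (chrM:70-1024), averaged 2632 CPM per kilobase, and that of mt-Rnr2, the large subunit rRNA (chrM:1094-2675), averaged 2337 CPM per kilobase. The first exceeded the second in 12 of 12 libraries. Together they held 1.91% to 4.20% of the mitochondrial counts, and tRNA genes held 0.720% to 1.01%. Whether poly(A) RNA was selected or rRNA removed bears on rRNA and tRNA levels, is not given, and was not tested.

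**Figure D1:**
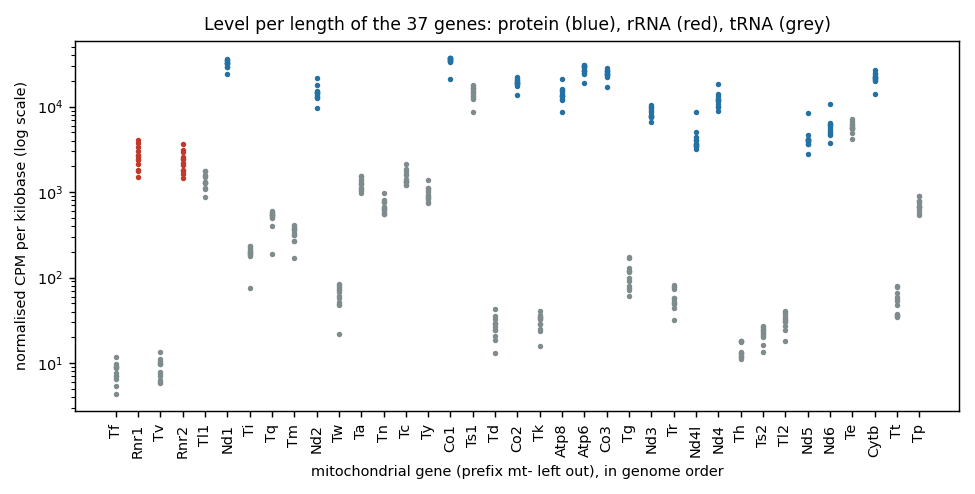
Level of the 37 mitochondrially encoded genes in normalised CPM per kilobase, on a log axis, in genome order, with 1 point per library (12 points a gene). Protein genes lie between 2756 and 37460, rRNA genes between 1462 and 4075, and tRNA genes between 4.33 and 17950 CPM per kilobase.

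The make-up of the mitochondrial counts was steady in most libraries. The coefficient of variation of a gene's share of them over 12 libraries was 3.42% for mt-Cytb, 4.36% for mt-Atp6, 4.57% for mt-Nd1 and 5.04% for mt-Co2. It was larger for mt-Rnr1 (25.1%), mt-Nd4l (25.2%), mt-Rnr2 (23.3%), mt-Nd5 (20.8%), mt-Nd6 (18.9%) and mt-Nd3 (16.2%). Without exercised WT replicate 5 it was 5.21% for mt-Nd5, 9.01% for mt-Nd6, 11.9% for mt-Nd3 and 12.4% for mt-Nd4l, but still 24.8% for mt-Rnr1 and 22.9% for mt-Rnr2. The spread of these complex I genes was thus smaller without that library, most so for mt-Nd5, and that of the rRNA genes was nearly the same.

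Exercised WT replicate 5 had 206735 counts of mt-Nd5, the proton-pumping end subunit of complex I, against 83182 to 127595 in the other 11 libraries. Its ratio of mt-Nd5 to mt-Nd1 counts was 0.455, against 0.214 to 0.269 elsewhere. Its mt-Nd4l share of the mitochondrial counts was 0.991%, against 0.444% to 0.645%, and its mt-Nd6 share was 2.13%, against 1.16% to 1.51%. The same library held the highest share of mt-Nd2, mt-Atp8 and mt-Nd4 and the lowest share of mt-Nd1, mt-Nd3, mt-Co2, mt-Co3 and mt-Atp6. Complex I genes thus stood at both ends of the range in it. Beside this, Malat1, another nuclear-retained RNA, was at 296.1 CPM in that library against 109.3 to 231 CPM elsewhere, and 36 nuclear-encoded complex I genes summed to 5359 CPM, the second lowest of 12. Their part in the shift was not tested.

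Sedentary MKO replicate 3 had the lowest normalised CPM of 28 of the 37 genes, among them 12 of 13 protein genes and both rRNA genes. The 13 protein genes summed to 141300 CPM in it, against 193600 to 251100 CPM in the other libraries. Its rRNA counts per 100 protein-gene counts, at 2.66, lay between those of the other sedentary MKO libraries, at 3.11 and 2.49. Its low level thus ran through proteins and rRNAs alike. The 2 oxidative fast-fibre genes, Myh2 and Myh1, summed to 2737 CPM in it, against 4799 to 6889 CPM elsewhere. The part of its low slow-fibre and oxidative fast-fibre markers in its low mitochondrial level was not tested.

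**Figure D2:**
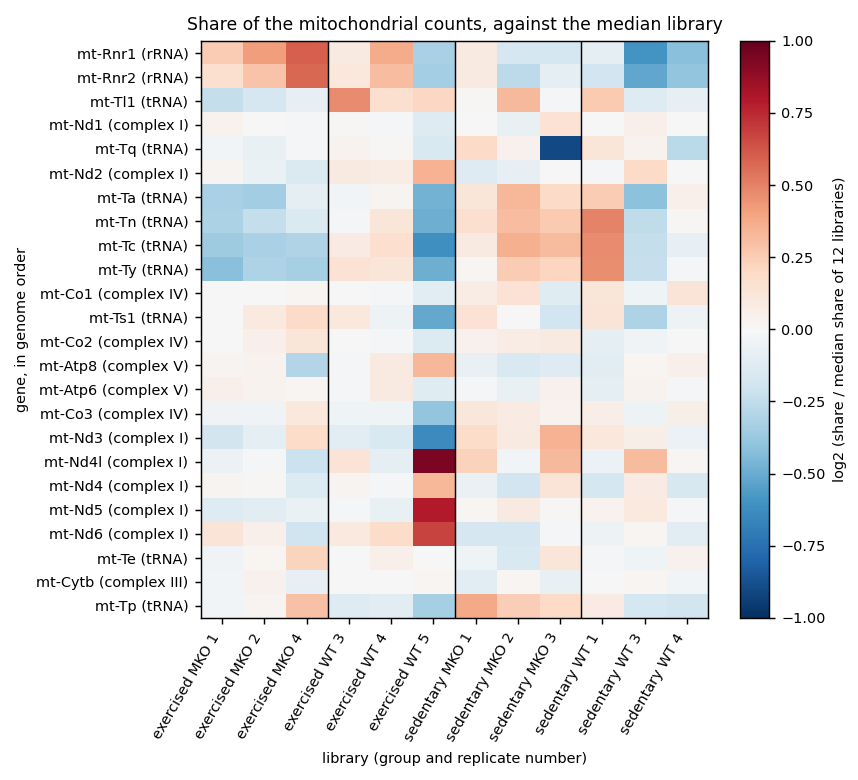
Share of each gene in the mitochondrial counts of a library, as log2 of the share over the median share of 12 libraries (colour), for the 24 genes with at least 200 counts in every library, in genome order; columns are libraries by group and replicate number. Exercised WT replicate 5 stands out in mt-Nd4l, mt-Nd5 and mt-Nd6, and the rRNA rows are highest in exercised MKO replicate 4.

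Running was tested in each genotype and, in a contrast added after the data were seen, as the mean of both genotypes' differences. Both rRNA genes rose in that averaged contrast, by 0.63 ± 0.15 for mt-Rnr1 and 0.59 ± 0.14 for mt-Rnr2 on the log2 scale (SE, edgeR quasi-likelihood test, adjusted p = 0.0161 and 0.0155 over 14486 genes, n = 6 exercised and 6 sedentary libraries). They were the only 2 of 36 members tested that passed, against 13.6% of all genes tested. The part of any poly(A) selection or rRNA removal in their rise was not tested. No protein gene and no tRNA gene passed, and a p above the threshold does not show that their levels were the same.

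The mt-Rnr1 level was 2889, 3544 and 3892 CPM in exercised MKO libraries and 2519, 3216 and 2312 CPM in exercised WT libraries. It was 2591, 2038 and 1445 CPM in sedentary MKO libraries and 2291, 1750 and 1673 CPM in sedentary WT libraries. Within each genotype all exercised libraries lay above all sedentary ones, in WT by a narrow margin. With both genotypes pooled the groups overlapped, and 4 of 6 exercised libraries exceeded every sedentary one. The mt-Rnr2 level was 4084, 4873 and 5802 CPM in exercised MKO libraries and 3835, 4643 and 3453 CPM in exercised WT libraries. It was 3901, 2884 and 2313 CPM in sedentary MKO libraries and 3249, 2777 and 2558 CPM in sedentary WT libraries. Sedentary MKO replicate 3 was lowest and exercised MKO replicate 4 highest for both genes, and the ratio of mt-Rnr2 to mt-Rnr1 counts stayed between 1.38 and 1.60. The averaged changes were 0.68 for mt-Rnr1 and 0.63 for mt-Rnr2 without exercised WT replicate 5 (adjusted p = 0.0187 and 0.0171), and 0.55 and 0.52 without sedentary MKO replicate 3 (adjusted p = 0.0163 and 0.0179).

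**Figure D3:**
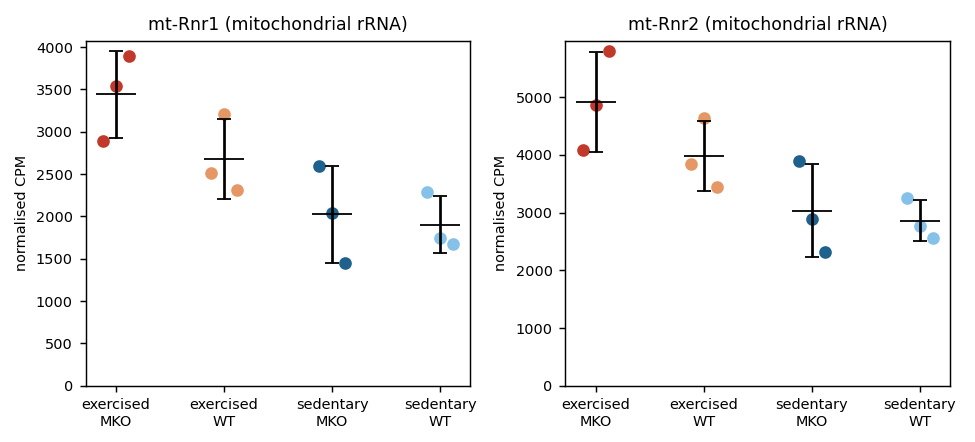
Normalised CPM of the mitochondrial rRNA genes mt-Rnr1 (left) and mt-Rnr2 (right) in the 4 groups, with 1 point per library, the mean as a horizontal line and the SD as a bar (n = 3). For mt-Rnr1 the exercised MKO libraries lie between 2889 and 3892 CPM and the sedentary MKO libraries between 1445 and 2591 CPM, and the exercised WT libraries lie between 2312 and 3216 CPM and the sedentary WT libraries between 1673 and 2291 CPM.

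The rRNAs also stood higher relative to the messenger RNAs of the same genome. There were 3.36, 3.71 and 4.43 rRNA counts per 100 protein-gene counts in exercised MKO libraries, and 3.13, 3.69 and 2.30 in exercised WT libraries. There were 3.11, 2.49 and 2.66 in sedentary MKO libraries, and 2.62, 1.97 and 2.19 in sedentary WT libraries. The exercised and sedentary MKO libraries did not overlap in this ratio, whereas exercised WT replicate 5 fell within the sedentary WT range.

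Within MKO mice, the change after running was 0.77 ± 0.22 for mt-Rnr1 and 0.70 ± 0.20 for mt-Rnr2 (SE, edgeR, adjusted p = 0.0790 and 0.0832, n = 3 each). Within WT mice it was 0.49 ± 0.21 and 0.48 ± 0.20 (adjusted p = 0.207 and 0.187). Neither passed the threshold within a genotype with edgeR. DESeq2, an alternative test on the same counts, called both within MKO mice (adjusted p = 0.00998 and 0.0119), where it called 4.21% of all genes. edgeR called both in MKO mice once sedentary MKO replicate 1 was left out (0.98 and 0.92, adjusted p = 0.0399 and 0.0291), whereas without sedentary MKO replicate 3 the changes were 0.58 and 0.55 (adjusted p = 0.158 and 0.174). In the averaged contrast DESeq2 called mt-Nd6 as well (adjusted p = 0.0254), where it called 11.8% of all genes. The MKO response exceeded the WT response by 0.27 ± 0.30 for mt-Rnr1 and 0.22 ± 0.28 for mt-Rnr2 (adjusted p = 0.983 for both), a difference within its error.

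Markers of other cells in the muscle moved with running too. In the averaged contrast 4 of 6 red blood cell genes and 7 of 8 fibroblast genes fell, with list medians of -1.18 and -0.81 on the log2 scale against -0.0004 for all genes. Among all 14486 genes tested, 1072 fell and 893 rose in this contrast. Summed over the list, red blood cell genes were at 513 to 835.7 CPM in exercised MKO and 447 to 573.1 CPM in exercised WT muscle, and at 1357 to 2276 CPM in sedentary MKO and 419.1 to 1683 CPM in sedentary WT muscle. Fibroblast genes summed to 287.6 to 461.3 CPM in exercised MKO and 278.5 to 307.5 CPM in exercised WT muscle, and to 653.2 to 679.4 CPM in sedentary MKO and 486.3 to 616.2 CPM in sedentary WT muscle. All members of both lists were detected. Of the other cell lists, 4 of 10 macrophage genes tested fell, among 8 endothelial genes 5 fell and 2 rose, and 1 of 5 adipocyte genes tested fell. Of 4 genes tested from a list of brown adipocyte markers 3 rose, with a list median of 1.39. They were Cidea, a lipid droplet protein, at 2.35, Dio2, a thyroid hormone deiodinase, at 1.53, and Ppargc1a, a coactivator that muscle also expresses, at 1.24. Ucp1, which defines brown fat, had 0 counts in all 12 libraries. The nuclear-retained RNA Neat1 also rose, by 0.61 ± 0.13 averaged (SE, adjusted p = 0.00775) and by 0.90 ± 0.18 in WT mice (adjusted p = 0.00982), and was at 0.32 ± 0.18 in MKO mice (adjusted p = 0.463). The transcript Gm42418, a RefSeq synonym of the nuclear rRNA gene Rn18s-rs5, was chosen after its values were seen and was near 1 CPM. It averaged 0.666 and 0.535 CPM in exercised MKO and WT muscle and 1.16 and 1.36 CPM in sedentary MKO and WT muscle, and it fell with a log2 change of -1.07 (adjusted p = 0.00586). Gm26917, another transcript at this low level and also chosen after its values were seen, was at 0.86 ± 0.30 in the same contrast (adjusted p = 0.0890). Their part in the rise of the mitochondrial rRNAs was not tested.

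Among protein genes, running in MKO mice gave positive log2 changes for 13 of 13, with a median of 0.26 and none past the threshold. In all, 0 of 36 members passed in MKO mice with edgeR, against 4.05% of all genes tested, and limma-voom also called 0. An unadjusted edgeR p under 0.05 was found for 4 members and for 2190 of all 14486 genes tested. The complex I genes changed by 0.26 ± 0.13 (mt-Nd1), 0.29 ± 0.18 (mt-Nd2), 0.05 ± 0.15 (mt-Nd3), 0.01 ± 0.28 (mt-Nd4l), 0.29 ± 0.18 (mt-Nd4), 0.12 ± 0.27 (mt-Nd5) and 0.39 ± 0.21 (mt-Nd6), with SEs after the signs. The complex IV genes changed by 0.22 ± 0.18 (mt-Co1), 0.26 ± 0.14 (mt-Co2) and 0.20 ± 0.15 (mt-Co3), the complex V genes by 0.32 ± 0.19 (mt-Atp8) and 0.33 ± 0.14 (mt-Atp6), and mt-Cytb of complex III by 0.30 ± 0.16. The smallest adjusted p among these was 0.288, for mt-Atp6. Its level was 19200, 20820 and 19960 CPM in exercised MKO libraries and 18330, 16590 and 12850 CPM in sedentary MKO libraries, without overlap. Groups did not overlap for 8 members, 6 of them protein genes and all 8 higher after running, where 21.7% of all genes did not overlap. The median over the 36 members was 0.23 beside 0.002 for all genes, and it was -0.04 without sedentary MKO replicate 3.

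In WT mice the run left the protein genes on both sides of 0, with 10 positive and 3 negative changes and a median of 0.09. Again 0 of 36 members passed with edgeR, against 8.24% of all genes, and 0 by DESeq2 or limma-voom. At an unadjusted edgeR p under 0.05 were 4 members, beside 3080 of all 14486 genes. The largest changes were 0.49 ± 0.21 for mt-Nd6, 0.41 ± 0.29 for mt-Nd4l, 0.36 ± 0.27 for mt-Nd5 and 0.29 ± 0.18 for mt-Nd4, all in complex I (SE, adjusted p from 0.204 to 0.503). The changes of mt-Nd5 and mt-Nd4l rested on exercised WT replicate 5, whereas that of mt-Nd6 was smaller but still positive without it, at 0.18. The mt-Nd4 level was also highest in that replicate, with 16600, 17050 and 25150 CPM in exercised WT libraries. The mt-Nd5 level was 7092, 7184 and 15230 CPM in exercised WT libraries and 7634, 8595 and 6718 CPM in sedentary WT libraries, and without that replicate its change was -0.10. The mt-Nd4l level was 1202, 1083 and 2563 CPM in exercised WT libraries and 1092, 1518 and 1039 CPM in sedentary WT libraries, and its change without that replicate was -0.09. Apart from replicate 5, the exercised libraries lay within the sedentary range for both genes.

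The other protein genes of WT mice had changes of smaller size after the run, and none passed. Of these, mt-Nd2 and mt-Atp8 were also highest in exercised WT replicate 5, at 22480 and 4327 CPM. The changes were 0.01 ± 0.13 for mt-Nd1, 0.20 ± 0.18 for mt-Nd2, -0.26 ± 0.15 for mt-Nd3 and 0.09 ± 0.16 for mt-Cytb. They were -0.04 ± 0.18 for mt-Co1, 0.06 ± 0.14 for mt-Co2, -0.11 ± 0.15 for mt-Co3, 0.25 ± 0.19 for mt-Atp8 and 0.08 ± 0.14 for mt-Atp6 (SE, n = 3 each, adjusted p from 0.375 to 0.975). Groups did not overlap for 4 members, which were both rRNA genes, mt-Tw and mt-Tg, where 27.3% of all genes did not overlap. The median over the 36 members was -0.01, beside -0.007 for all genes.

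Averaged over genotypes, the run gave mt-Nd6 a log2 change of 0.44 ± 0.15 (edgeR adjusted p = 0.0774) and mt-Nd4 one of 0.29 ± 0.13 (adjusted p = 0.179). The mt-Nd6 level was 3154, 3272 and 2677 CPM in exercised MKO and 3014, 3373 and 5526 CPM in exercised WT libraries, and 2586, 2433 and 1921 CPM in sedentary MKO and 2820, 3202 and 2460 CPM in sedentary WT libraries. The groups overlapped. The change was 0.28 without exercised WT replicate 5 (adjusted p = 0.113) and 0.53 without exercised WT replicate 3 (adjusted p = 0.0401). Since the use of strand in counting is unknown, reads of either strand cannot be told apart in mt-Nd6. The remaining 11 protein genes lay between -0.10 for mt-Nd3 and 0.28 for mt-Atp8, and 12 of 13 were positive. No member was without overlap between the 6 exercised and 6 sedentary libraries, where 7.59% of all genes were.

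Whether the run acted differently in the genotypes was tested as the MKO response minus the WT response. It passed for 0 of 36 members, as for 0% of all genes with edgeR, and DESeq2 or limma-voom called 0 members. An unadjusted edgeR p under 0.05 was reached by 0 members and by 534 of all 14486 genes. Protein genes ranged from -0.40 ± 0.40 for mt-Nd4l to 0.31 ± 0.22 for mt-Nd3, and 9 of 13 were positive. The changes were 0.26 ± 0.25 for mt-Co1, 0.24 ± 0.20 for mt-Atp6 and 0.21 ± 0.23 for mt-Cytb. The median over members was 0.21 beside 0.009 for all genes, and it was -0.02 without sedentary MKO replicate 3.

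**Figure D4:**
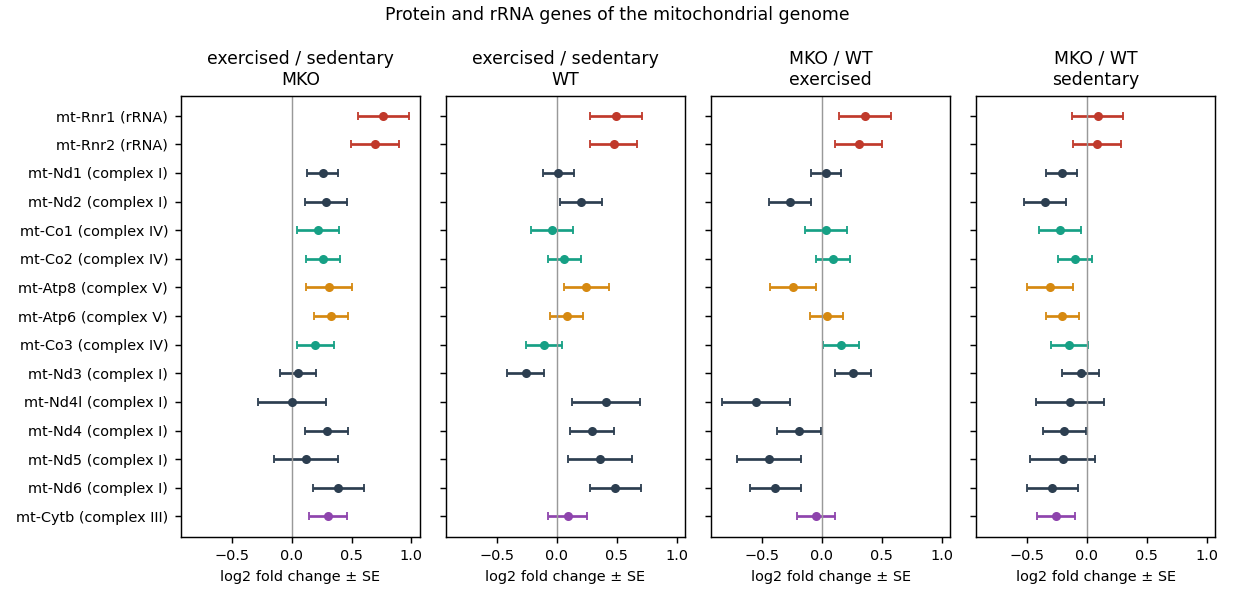
Log2 fold change (x axis) of the 13 protein genes and 2 rRNA genes (rows, in genome order) in the 4 pairwise comparisons, with SE bars from the edgeR fit; colours mark the complex or rRNA. Both rRNA genes have the highest values in the panel for exercised over sedentary MKO, at 0.77 and 0.70, and no point in the 4 panels passed an adjusted p of 0.05.

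Between exercised MKO and exercised WT muscle, 0 of 36 members passed with edgeR, against 0.0345% of all genes, and 0 with DESeq2 or limma-voom. At an unadjusted edgeR p under 0.05 was 1 member, beside 2320 of all 14486 genes. The rRNA genes were at 0.36 ± 0.21 (mt-Rnr1) and 0.31 ± 0.20 (mt-Rnr2). Complex IV genes were at 0.04 ± 0.18 (mt-Co1), 0.10 ± 0.14 (mt-Co2) and 0.16 ± 0.15 (mt-Co3), mt-Cytb at -0.05 ± 0.16, mt-Atp6 at 0.04 ± 0.14 and mt-Atp8 at -0.24 ± 0.19. Complex I genes were at 0.03 ± 0.13 (mt-Nd1), -0.27 ± 0.18 (mt-Nd2), 0.26 ± 0.15 (mt-Nd3), -0.55 ± 0.29 (mt-Nd4l), -0.19 ± 0.18 (mt-Nd4), -0.44 ± 0.27 (mt-Nd5) and -0.39 ± 0.21 (mt-Nd6), with SEs after the signs. The smallest adjusted p among the protein genes was 0.363. The negative complex I values again rested on exercised WT replicate 5, since without it they were -0.05 for mt-Nd4l, 0.02 for mt-Nd5, -0.08 for mt-Nd6 and -0.07 for mt-Nd2. The median over members was -0.01 beside 0.008 for all genes. Groups did not overlap for 3 members, the tRNA genes mt-Tl1 and mt-Tw, which were lower, and mt-Tp, which was higher, where 23.1% of all genes did not overlap. Macrophage genes, 10 of 10 with positive changes and none past the threshold, summed to 65.9 to 166.3 CPM in exercised MKO and 50.8 to 62.9 CPM in exercised WT muscle. Their part in these values was not tested.

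At rest, all 13 protein genes had negative log2 changes in MKO against WT muscle, with a median of -0.21 and a range from -0.35 to -0.05. In all, 0 of 36 members passed with edgeR, against 0.00690% of all genes, and DESeq2 and limma-voom called 0. None reached an unadjusted edgeR p under 0.05, against 545 of all 14486 genes. The lowest was mt-Nd2 at -0.35 ± 0.18 (SE, adjusted p = 1). Its level was 13580, 13150 and 9959 CPM in sedentary MKO libraries and 14870, 18380 and 13620 CPM in sedentary WT libraries. It was the 1 member whose groups did not overlap, where 10.3% of all genes did not. The other complex I genes were at -0.21 ± 0.13 (mt-Nd1), -0.05 ± 0.15 (mt-Nd3), -0.14 ± 0.29 (mt-Nd4l), -0.19 ± 0.18 (mt-Nd4), -0.20 ± 0.27 (mt-Nd5) and -0.29 ± 0.21 (mt-Nd6). Complex IV was at -0.22 ± 0.18 (mt-Co1), -0.10 ± 0.14 (mt-Co2) and -0.15 ± 0.15 (mt-Co3), complex V at -0.31 ± 0.19 (mt-Atp8) and -0.21 ± 0.14 (mt-Atp6), and mt-Cytb at -0.26 ± 0.16. The rRNA genes were on the other side, at 0.09 ± 0.21 (mt-Rnr1) and 0.08 ± 0.20 (mt-Rnr2). Beside this, macrophage genes, 10 of 10 with positive changes and a median of 0.62, summed to 125 to 171.2 CPM in sedentary MKO and 77.8 to 114.6 CPM in sedentary WT muscle. Red blood cell genes were positive for 6 of 6, with a median of 0.92, and fibroblast genes for 8 of 8, with a median of 0.27. Slow-fibre genes were positive for 10 of 12, with a median of 0.54. They summed to 149.8 to 2104 CPM in sedentary MKO and 749.4 to 1232 CPM in sedentary WT muscle. The 2 oxidative fast-fibre genes were both negative, with a median of -0.15. No gene of these lists passed, and their part in these values was not tested.

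The size of the changes at rest, and the sign of some of them, depended on single libraries. The mt-Co1 level was 55200, 54460 and 32400 CPM in sedentary MKO libraries, the last in replicate 3, and 57540, 55410 and 52720 CPM in sedentary WT libraries. Without that replicate the median over the 36 members was -0.02, against -0.20 with it and 0.002 for all genes, and mt-Co2, mt-Co3 and mt-Nd3 were at 0.04, 0.02 and 0.04. The other 10 of 13 protein genes stayed negative without it, from -0.02 for mt-Co1 to -0.23 for mt-Nd2. Without sedentary WT replicate 3, mt-Nd4l was at 0.05 and mt-Nd3 at 0.02. Without sedentary MKO replicate 1, mt-Rnr1 and mt-Rnr2 were at -0.13 and -0.14. MKO against WT was also averaged over both states, in a contrast added after the data were seen. It passed for 0 of 36 members with edgeR, against 0.0138% of all genes. An unadjusted p under 0.05 was found for 2 members, beside 2245 of all 14486 genes. The 2 members were mt-Nd2 at -0.31 ± 0.12 and mt-Nd6 at -0.34 ± 0.15 (edgeR adjusted p = 0.273 and 0.305). DESeq2 and limma-voom called 0.

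tRNA genes were read at very different depths by strand. The 8 on the minus strand had 220 to 17251 counts per library. Of the 14 on the plus strand, 13 had 4 to 415 counts, and mt-Tl1, a leucine tRNA gene that lies between mt-Rnr2 and mt-Nd1, had 1081 to 1862 counts. The most counted were mt-Ts1, a serine tRNA gene at chrM:6870-6938, with 14540 CPM per kilobase, and mt-Te, the glutamate tRNA gene at chrM:14071-14139, with 5787 CPM per kilobase. Both lie on the minus strand and are printed in their own direction, with capitals for the 3 bases opposite the end of mt-Co1.
mt-Ts1: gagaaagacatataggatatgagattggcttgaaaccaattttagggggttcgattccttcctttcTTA
mt-Te: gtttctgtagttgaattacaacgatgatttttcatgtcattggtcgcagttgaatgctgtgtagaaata
The minus-strand tRNA genes lie opposite the long plus-strand transcript, and the use of strand in counting is unknown, so reads of either strand cannot be told apart there. The same holds for all of mt-Nd6, a minus-strand gene between the plus-strand genes mt-Nd5 and mt-Cytb. It also shares 14 bases with mt-Nd5 on the opposite strand. By contrast, mt-Tv, shown in capitals at the rRNA junction, had 6 to 13 counts between rRNA genes with 23911 to 80790 counts.

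No tRNA gene passed in any of the 7 contrasts. In the averaged run contrast 12 of 21 tested were positive, with a median of 0.03. On the minus strand the log2 changes were 0.24 for mt-Te (glutamate), 0.19 for mt-Tq (glutamine), 0.18 for mt-Ts1 (serine) and 0.03 for mt-Tp (proline). The cluster of 4 minus-strand genes next to the light-strand origin gave -0.13 for mt-Ta (alanine), -0.18 for mt-Tn (asparagine), -0.21 for mt-Tc (cysteine) and -0.16 for mt-Ty (tyrosine), each within 2 SEs of 0. On the plus strand the changes were 0.40 for mt-Tw (tryptophan), 0.19 for mt-Tv, 0.16 for mt-Tl1, 0.15 for mt-Tm (methionine) and 0.14 for mt-Ti (isoleucine). The remaining plus-strand genes, each with at most 173 counts, lay between -0.40 for mt-Tg and 0.07 for mt-Tk (lysine), with mt-Td (aspartate), mt-Tr (arginine), mt-Th (histidine), mt-Ts2 (serine), mt-Tl2 (leucine) and mt-Tt (threonine) between them. No adjusted p among these genes was below 0.112. The glutamate tRNA gene mt-Te had 384.5, 439.2 and 490.6 CPM in exercised MKO and 386.9, 420.8 and 468.8 CPM in exercised WT libraries, against 385.3, 334.9 and 290.5 CPM in sedentary MKO and 397.6, 418.6 and 374 CPM in sedentary WT libraries. Its groups overlapped, and its change was 0.24 ± 0.09 (SE, edgeR adjusted p = 0.112). In WT mice mt-Tg, the glycine tRNA gene, had 5.45, 6.20 and 5.08 CPM in exercised libraries and 11.9, 8.15 and 8.09 CPM in sedentary libraries, a change of -0.75 ± 0.33 (adjusted p = 0.211) on 69 to 173 counts per library. After exercise mt-Tl1 had 82.3, 94.8 and 98.0 CPM in MKO libraries and 131.7, 111.7 and 133.9 CPM in WT libraries, without overlap, a change of -0.46 ± 0.19 (adjusted p = 0.272). These 3 genes were the tRNA genes with an unadjusted p under 0.05 in a comparison.

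The nuclear genome holds copies of mitochondrial genes, and 15 annotated pseudogenes matched 11 of the protein genes over at least 100 bases at 90% identity or more. Of these, 7 lie side by side on chromosome 1 between positions 24611535 and 24616197. Counts of 5 of them equalled those of the mitochondrial gene within 0.995 to 1.01 times in every library. These were Gm28437 for mt-Co3, Gm10925 for mt-Atp6, Gm28661 for mt-Co2, Gm28438 for mt-Nd3 and Gm10222 for mt-Nd4l, and 4 of them matched without a mismatch. Partial copies had lower ratios, such as 0.293 to 0.347 for Gm29216, which spans 31.3% of mt-Co1. Gm13340, a copy of all of mt-Co1 with 37 mismatches, had 0.175 to 0.186 times its counts. Gm13341, a copy of mt-Co2 on chromosome 2, had 0.281 times the counts of its gene on average. The other copies were lower, at 0.0428 for Gm13339 (mt-Nd2), 0.0259 for Gm11407 and 0.0167 for Gm4076 (both mt-Nd5), and below 0.006 for Gm11408 (mt-Nd6), Gm11512 (mt-Co1) and Gm11410 (mt-Cytb).

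Together the 15 copies held 7.26% to 10.1% of the counts of a library. How reads that match both places were counted is not known, so the values of mt-Co1, mt-Co2, mt-Co3, mt-Atp6, mt-Nd3, mt-Nd4l and mt-Nd4 are uncertain in level. The rRNA genes, on which the running result rests, had no such copy among the annotated transcripts searched. Copies outside this annotation were not looked for. Log2 fold changes of the chromosome 1 copies differed from those of their mitochondrial genes by at most 0.16 in the 4 pairwise comparisons. For the 5 copies with counts near those of their gene, the closeness follows from the counts. The largest difference was for Gm28439 between exercised MKO and exercised WT muscle, at -0.35 against -0.19 for mt-Nd4. With the copies left out of the table, the averaged change was 0.63 for mt-Rnr1 and 0.59 for mt-Rnr2, as with them. Since no copy found matched the rRNA genes, this step could change them only through the scaling and the shared fit.

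**Figure D5:**
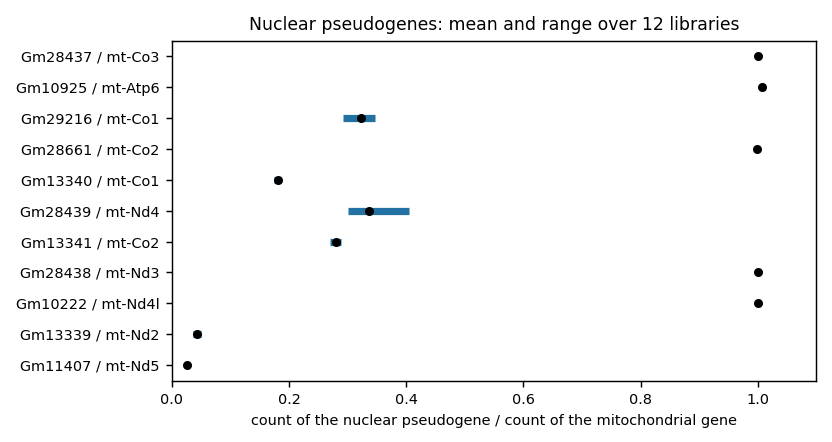
Count of a nuclear pseudogene divided by the count of its mitochondrial gene (x axis), as the mean (point) and range (bar) over 12 libraries, for the 11 copies with a mean ratio above 0.02. The 5 full-length copies on chromosome 1 sit at 1, the partial copies Gm29216 and Gm28439 near 0.32 and 0.34, and Gm13340 at 0.182.

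The nuclear genes that transcribe mitochondrial DNA did not pass with the rRNAs. Of 11 listed transcription genes 9 were tested and none passed in any contrast, with a median of -0.02 in the averaged run contrast. Polrmt, the polymerase, averaged 21.6 ± 1.08 and 19.4 ± 1.73 CPM in exercised MKO and WT muscle and 20.7 ± 1.44 and 22.3 ± 1.34 CPM in sedentary MKO and WT muscle (SD, n = 3 each), and its averaged change was -0.07 ± 0.06 (SE, adjusted p = 0.558). Tfam, which packs the genome and starts transcription, changed by 0.01 ± 0.06 (adjusted p = 0.940). Of 17 genes that maintain mitochondrial DNA, Twnk, its helicase, averaged 12.1 ± 0.731 CPM in exercised and 14.1 ± 0.920 CPM in sedentary libraries (SD, n = 6 each). It fell by 0.23 on the log2 scale in the averaged contrast (edgeR adjusted p = 0.0258), and no other passed, where 13.6% of all genes did.

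Among 36 genes of mitochondrial RNA processing and stability, 1 rose and 1 fell in the averaged run contrast, where 13.6% of all genes passed. Mrm1, a methyltransferase of the large mitochondrial rRNA, had 9.37, 8.73 and 8.55 CPM in exercised MKO and 8.98, 9.30 and 8.18 CPM in exercised WT libraries, against 5.26, 4.67 and 5.02 CPM in sedentary MKO and 4.94, 5.39 and 3.50 CPM in sedentary WT libraries. Every exercised library lay above every sedentary one. On the log2 scale Mrm1 rose by 0.83 ± 0.14 in MKO mice (adjusted p = 0.00610), by 0.93 ± 0.14 in WT mice (adjusted p = 0.00178) and by 0.88 ± 0.10 averaged (adjusted p = 0.000120). Trmt5, a tRNA methyltransferase, averaged 3.22 ± 0.311 CPM in exercised and 4.34 ± 0.507 CPM in sedentary libraries (SD, n = 6 each), a log2 change of -0.43 ± 0.09 (adjusted p = 0.00921). It passed in WT mice at -0.60 (adjusted p = 0.0155) and not in MKO mice at -0.26 (adjusted p = 0.466), and the difference between them did not pass (adjusted p = 0.983).

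Of 12 nuclear regulators of mitochondrial genes 3 rose in the averaged contrast, where 893 of all 14486 genes rose. Ppard, a fatty acid receptor, rose by 0.50 ± 0.07 (SE, adjusted p = 0.000668) and passed in both genotypes. Ppargc1a, the coactivator PGC-1 alpha, rose by 1.24 ± 0.30 (adjusted p = 0.0168), with 75.7 ± 9.54 and 96.6 ± 67.5 CPM in exercised MKO and WT muscle and 29.9 ± 11.3 and 43.8 ± 13.9 CPM in sedentary MKO and WT muscle (SD, n = 3 each). Its highest value, 174.1 CPM, was in exercised WT replicate 5. Pprc1, a related coactivator, rose by 0.33 ± 0.09 (adjusted p = 0.0266).

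None of the nuclear-encoded subunits tested passed in any contrast, with 36 genes of complex I, 4 of complex II, 9 of complex III, 12 of complex IV and 14 of complex V. Their list medians after the run lay between 0.13 and 0.19 in MKO mice and between -0.13 and -0.03 in WT mice, beside 0.002 and -0.007 for all genes. Between exercised MKO and exercised WT muscle the medians were 0.16 to 0.26, where the mitochondrially encoded members had -0.01 and all genes 0.008. Sedentary MKO replicate 3 and exercised WT replicate 5 had the lowest and next lowest summed levels of the nuclear subunits of complexes I, III, IV and V. For complex IV these were 3729 and 3901 CPM, against 4513 to 5715 CPM in the other libraries, and these medians were not computed without them.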

How the data were processed

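Gastrocnemius RNA, in 12 libraries with 3 per group, was sequenced on the DNBSEQ platform, per the labels. The protocol names 18 libraries, of which these 12 were analysed here. The authors deposited raw counts per Ensembl identifier, which are whole numbers with 14324010 to 14563501 counts per library. Per the submitters' processing notes, HISAT2 2.2.1 and StringTie 2.1.4 were used, with DESeq2 1.40.2 in R 4.3, SAMtools 1.9 and FastQC 0.12.1, and the builds were GRCm38.p6 and mm10. The counter, its use of strand, its handling of reads with several matches and the annotation release are not stated there. One misspelt column name was taken as exercised MKO replicate 4, the sample of that group with no other column.

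Symbols came from GENCODE M21, which named 42462 of 43432 identifiers. The filterByExpr step of edgeR, with a minimum count of 10 and a total of at least 15, kept 14486 genes. Counts were scaled by TMM (factors 0.928 to 1.15) and tested with edgeR 4.0.16 in R 4.3.3 by the quasi-likelihood test over all 4 groups (8 residual degrees of freedom, biological coefficient of variation 15.3%), with Benjamini-Hochberg adjustment over all genes tested and a threshold of 0.05. CPM are TMM-scaled counts relative to library size. DESeq2 1.42.0 and limma 3.58.1 were alternatives, with other scalings, filters, treatment of nuclear copies, a replicate block and each library left out. Copies were found with BLAST+ 2.17.0 (at least 90% identity over 100 bases). The search covered GENCODE M21 transcripts of genes in the count table, not the whole genome. Figures were drawn with Python 3.11.15 and matplotlib 3.10.9.

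On simulated counts for sedentary MKO against WT (14284 genes), 95% of 4-fold and 58% of 2-fold changes were recovered, with 6 false calls. Each gene was drawn independently, with no library that stood apart. Changes below 2-fold, such as those of the members, were not simulated. No 2 libraries of a group were duplicates (chi-square per degree of freedom at least 4.63). The labels do not tie the libraries to extraction or sequencing batches, so p-values measure the spread between these samples only, and counts carry counting error besides.

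The rule for named genes takes every protein and rRNA gene in each comparison, each tRNA gene tested, the targeted gene, the nuclear copies and, of each other list, the genes that passed or else up to 3 with the smallest p. Members and lists were chosen with earlier results of these data known, and both averaged contrasts were added after the data were seen.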

Additional observations from a re-analysis of the deposited data

How the results depend on the processing

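For single genes 1933 values under alternatives were computed for 85 results, of which 62 changed sign, 7 passed the threshold where the reported fit had not, and 1 was lost. The averaged rise with running lay between 0.51 and 0.74 for mt-Rnr1 (adjusted p 0.000435 to 0.0437) and between 0.47 and 0.70 for mt-Rnr2 (adjusted p 0.000398 to 0.0551) over 22 alternatives each, and only the replicate block put mt-Rnr2 above 0.05, which left 1 member called. DESeq2 called 2 members for running in MKO mice, and a fit of the WT groups alone called 1 for running in WT mice, mt-Tg (adjusted p = 0.0486).

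With total counts as the only scaling, which moved the median of all genes by -0.12 for the averaged run, mt-Nd3 was at 0.025 for MKO against WT at rest. Running in WT mice then gave -0.086 for mt-Nd1, -0.034 for mt-Co2, -0.016 for mt-Atp6 and -0.008 for mt-Cytb, and running in MKO mice -0.095 for mt-Nd3, -0.14 for mt-Nd4l and -0.018 for mt-Nd5. The difference between the responses of mt-Nd4 was 0.016 with limma-voom and 0.0002 with a filter of 1 CPM in 3 libraries. Same-numbered libraries did not deviate together (correlations -0.153 to 0.076 over 10 pairs), so the numbers were not taken as pairs. With the replicate block, MKO against WT after exercise was -0.12 for mt-Co1, -0.020 for mt-Atp6 and -0.0061 for mt-Co3, running in WT mice was -0.053 for mt-Nd4l and -0.063 for mt-Nd5, and the difference between responses was 0.13 for mt-Nd4l, 0.23 for mt-Nd4, 0.19 for mt-Nd5 and 0.17 for mt-Nd6. For all of these the cause was not tested.

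With the nuclear copies left out of the total, the mitochondrial share was 24.4% in exercised MKO, 24.04% in exercised WT, 22.2% in sedentary MKO and 24.5% in sedentary WT muscle. With the copies counted as mitochondrial it was 31.6% in exercised MKO, 30.8% in exercised WT, 29.1% in sedentary MKO and 31.6% in sedentary WT muscle.

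With 1 library left out in turn, MKO against WT at rest ranged from -0.20 to 0.043 for mt-Co2, -0.28 to 0.019 for mt-Co3, -0.155 to 0.040 for mt-Nd3, -0.30 to 0.047 for mt-Nd4l, -0.13 to 0.27 for mt-Rnr1 and -0.14 to 0.24 for mt-Rnr2. MKO against WT after exercise ranged from -0.0066 to 0.076 for mt-Nd1, -0.012 to 0.090 for mt-Co1, -0.030 to 0.069 for mt-Atp6, -0.31 to 0.029 for mt-Nd4, -0.65 to 0.016 for mt-Nd5 and -0.12 to 0.047 for mt-Cytb. Running in WT mice ranged from -0.049 to 0.09 for mt-Nd1, -0.089 to 0.013 for mt-Co1, -0.087 to 0.64 for mt-Nd4l, -0.10 to 0.56 for mt-Nd5 and -0.004 to 0.16 for mt-Cytb. Running in MKO mice ranged from -0.074 to 0.16 for mt-Nd3, -0.083 to 0.16 for mt-Nd4l and -0.033 to 0.22 for mt-Nd5, with 0 to 2 members called and a median over members of -0.036 to 0.37. The difference between responses ranged from -0.051 to 0.28 for mt-Nd2, -0.10 to 0.27 for mt-Atp8, -0.64 to 0.091 for mt-Nd4l, -0.16 to 0.22 for mt-Nd4, -0.44 to 0.22 for mt-Nd5 and -0.28 to 0.21 for mt-Nd6.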
